A study of Mus musculus with 2 samples.

Results

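Among small intestinal innate lymphoid cells (ILCs) without CD3 transcripts, those holding many Il22 transcripts were compared with those holding none. A member was a cell carrying the sample tag of its own library, with at least 300 detected genes and at most 25% mitochondrial transcripts. It also held at least 1 unique molecular identifier (UMI, a tag that counts each captured transcript once) for Il7r and none for Cd3d, Cd3e, Cd3g or Trac. Of 7381 cells with the 2 tags, 4063 met the rule. Of these, 1014 had 5 or more Il22 UMIs (Il22-high: 455 in replicate 1 and 559 in replicate 2) and 1779 had none (Il22-zero: 766 and 1013). The remaining 1270 cells had 1 to 4 Il22 UMIs and served as a middle group.

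The cells had been sorted as ILC3s from the lamina propria of the small intestine of male C57BL/6 mice at 18 months of age. They were labelled with sample tags, pooled with other tagged samples and captured on the BD Rhapsody system. The labels name 2 replicates and no treatment or engineered allele, although the study as titled concerns the protein Cxxc1. They do not say whether the replicates came from separate animals, so p-values measure only the agreement of these 2 samples, whose spread may be technical.

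Group 3 ILCs are tissue-resident lymphocytes of mucosal surfaces. They answer IL-23 and IL-1β from myeloid cells by secreting IL-22, which acts on epithelial cells to induce antimicrobial proteins, mucus and repair. One group of them carries the receptor NKp46 (Ncr1) and can take up type 1 features such as T-bet, while lymphoid tissue inducer (LTi)-like cells carry CCR6 and, in part, CD4.

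Il22 lies on mouse chromosome 10 at chr10:118204942-118210047, plus strand, in the GRCm38 build (GENCODE M21). A near-identical protein-coding copy, Iltifb, lies on the minus strand at chr10:118289629-118295038. The annotated transcripts are 1110 and 1111 bases long and are 97.3% identical. Over their last 300 bases, 284 of 301 aligned positions are identical (94.35%). Reads of one can therefore be counted for the other, and the Il22 UMIs that define the groups are to be read with that limit. The coding bases 68 to 217 of both genes are shown because they carry 5 of the 9 coding differences, which are in capitals.
Il22: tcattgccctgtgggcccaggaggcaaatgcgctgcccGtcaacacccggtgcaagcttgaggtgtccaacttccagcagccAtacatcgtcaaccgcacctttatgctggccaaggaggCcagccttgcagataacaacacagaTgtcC
Iltifb: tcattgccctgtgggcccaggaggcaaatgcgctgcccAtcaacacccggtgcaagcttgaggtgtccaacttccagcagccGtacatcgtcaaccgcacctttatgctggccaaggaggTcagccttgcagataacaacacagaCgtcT

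A group of chemokine genes was among those higher in Il22-high cells. Their upstream windows (RefSeq, GRCm38.p6, the 250 bases before the gene start, on the gene's strand) are shown because all 4 hold a form of the NF-κB motif (GGG, 2 bases of any kind, TT, 1 base of any kind and CC, with no gap), searched on both strands and in capitals here.
Cxcl10, chr5:92348890-92349139, minus strand: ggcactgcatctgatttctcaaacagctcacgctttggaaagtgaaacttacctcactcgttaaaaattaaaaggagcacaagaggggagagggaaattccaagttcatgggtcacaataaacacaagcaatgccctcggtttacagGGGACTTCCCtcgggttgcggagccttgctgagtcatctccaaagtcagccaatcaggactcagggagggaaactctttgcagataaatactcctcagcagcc
Cxcl9, chr5:92328080-92328329, minus strand: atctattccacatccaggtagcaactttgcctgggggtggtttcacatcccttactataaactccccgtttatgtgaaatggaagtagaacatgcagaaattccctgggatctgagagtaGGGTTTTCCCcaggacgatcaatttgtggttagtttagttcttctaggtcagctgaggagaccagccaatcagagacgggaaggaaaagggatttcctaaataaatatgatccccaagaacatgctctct
Cxcl2, chr5:90903649-90903898, plus strand: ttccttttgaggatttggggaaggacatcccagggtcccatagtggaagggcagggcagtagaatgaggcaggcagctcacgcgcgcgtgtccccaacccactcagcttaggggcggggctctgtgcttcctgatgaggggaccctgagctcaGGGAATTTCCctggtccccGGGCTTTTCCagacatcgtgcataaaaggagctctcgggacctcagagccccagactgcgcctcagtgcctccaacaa
Cxcl3, chr5:90785851-90786100, plus strand: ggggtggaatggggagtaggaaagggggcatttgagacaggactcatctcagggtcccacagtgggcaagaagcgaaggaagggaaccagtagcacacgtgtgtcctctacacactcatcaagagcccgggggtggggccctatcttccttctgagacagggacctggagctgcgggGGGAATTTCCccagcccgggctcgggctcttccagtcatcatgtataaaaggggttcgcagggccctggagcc
The motif stood in at least 1 window of 6.003% of the 6430 tested genes with a RefSeq window, of 17.07% of the 82 higher genes with one (14 genes) and of 5.952% of the 84 lower genes with one (5 genes). Another 2 motifs searched stood in 6.098% of the higher, 5.952% of the lower and 5.101% of the tested genes (AP-1, TGANTCA), and in 2.439%, 10.71% and 6.874% (STAT, TTC, 3 bases of any kind and GAA). The window of Il22 itself, searched in the same way, held no match to any of these motifs. A match describes letters in these windows and shows neither binding nor a cause.

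Il22 itself was spread very unevenly over the cells, as its choice for the rule implies. In replicate 1, 25.04% of members were Il22-high (95% exact binomial interval 23.1 to 27.1%), and in replicate 2 it was 24.9% (23.1 to 26.7%). These cells held 86.8% and 87.1% of all Il22 UMIs of the members. The median Il22-high cell had 11 Il22 UMIs in both replicates, and the highest had 126 and 212. Just outside the threshold, 65 and 87 cells had 4 UMIs, and just inside it 53 and 68 cells had 5, so the threshold cuts a continuous range. The intervals cover counting error only. As a background, cells with at least 3 UMIs of the fibroblast gene Col1a1 and no Il7r UMI had an Il22 UMI in 6 of 37 and 1 of 4 cells, at median depths of 3844 and 2634 UMIs against 1826 and 1658.5 in the members. Of them, 1 cell, in replicate 1, had 5 or more.

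**Figure D1:**
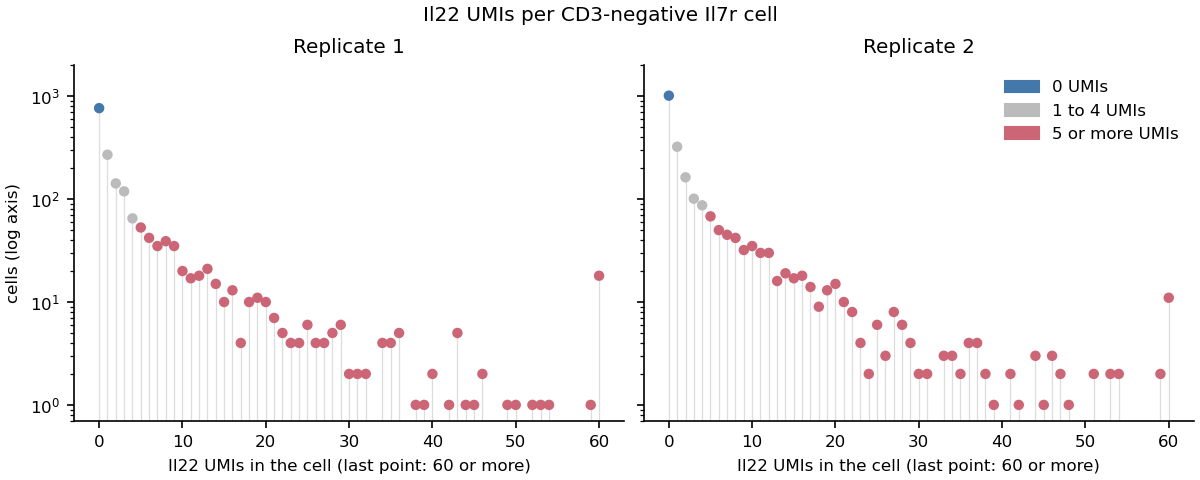
Number of CD3-negative Il7r cells (log axis) by the Il22 UMIs in the cell, one panel per replicate; cells with 60 or more share the last point, numbers with no cell have no point, and colours mark the 3 groups. The counts fall without a gap at the threshold, from 65 to 53 cells between 4 and 5 UMIs in replicate 1 and from 87 to 68 in replicate 2.

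Iltifb followed Il22, with 20 and 21 UMIs in the Il22-high sums against 1 and 9 in the Il22-zero sums. Because the copies differ at few bases, its log2 ratio of 2.52 ± 0.53 (SE; edgeR adjusted p = 0.00229) cannot be told apart from misassigned Il22 reads.

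The 2 groups differed in depth. Il22-high cells had a median of 2114 and 1839 UMIs, and Il22-zero cells 1717.5 and 1578. Detected genes followed, with medians of 1078 and 960 against 935 and 865. After each cell was thinned to 1000 UMIs, which left out 15 and 16 Il22-high and 59 and 93 Il22-zero cells, the medians were 637 and 626 against 638 and 625 genes. The rule and the Il22 groups were set at full depth and not drawn again after thinning, so thinning evened out the counts only. The mitochondrial share was 8.69% and 8.01% in Il22-high and 8.77% and 7.86% in Il22-zero cells. Il7r, used by the rule, stood at 2061 and 2409 UMIs per 1000000 of the sum (CPM) in Il22-high and at 2333 and 2628 CPM in Il22-zero cells.

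Gene counts were summed over the cells of each group and replicate and compared with edgeR's quasi-likelihood test, with the replicate as a block. Of 8119 genes tested, 110 were higher in Il22-high cells (1.35%) and 114 lower (1.40%) at a Benjamini-Hochberg adjusted p under 0.05, 2.76% together. The median log2 ratio over all tested genes was -0.0019, and 970 genes had an unadjusted p under 0.05. Of the 224 genes called, 217 had the same sign in both replicates, which a fit blocked on the replicate favours; of all 8119 tested genes 4560 did. Without the replicate block no gene passed (0 higher, 0 lower; 165 at an unadjusted p under 0.05), and DESeq2 called 15 higher and 8 lower among the 539 genes to which it gave an adjusted p, all of them also called by edgeR. With thinned cells 57 genes were higher and 44 lower, of which 49 and 40 were shared with the unthinned call. Beside those given at their values below, the named genes Atf3, Cd44, Icos, Ifng, Il2ra, Itga4, Klrk1, Pfkfb3, Prf1, Rel, Vdr, Iltifb, Dnajb1, Adamdec1, Col1a1 and Eln did not pass in thinned cells. Levels below are CPM of each sum, and adjusted p-values are edgeR's. Ratios are Il22-high over Il22-zero on the log2 scale. Their SE was worked out from the ratio and the F statistic of the test. Groups are said not to overlap where both Il22-high sums lay beyond both Il22-zero sums. That held for 952 of 4037 tested genes with a ratio above 0 and 1059 of 4082 with a ratio below 0. Among called genes it held for 67 of 110 higher and 79 of 114 lower. Counts of list members below are to be read beside the 1.35% higher and 1.40% lower of all tested genes.

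**Figure D2:**
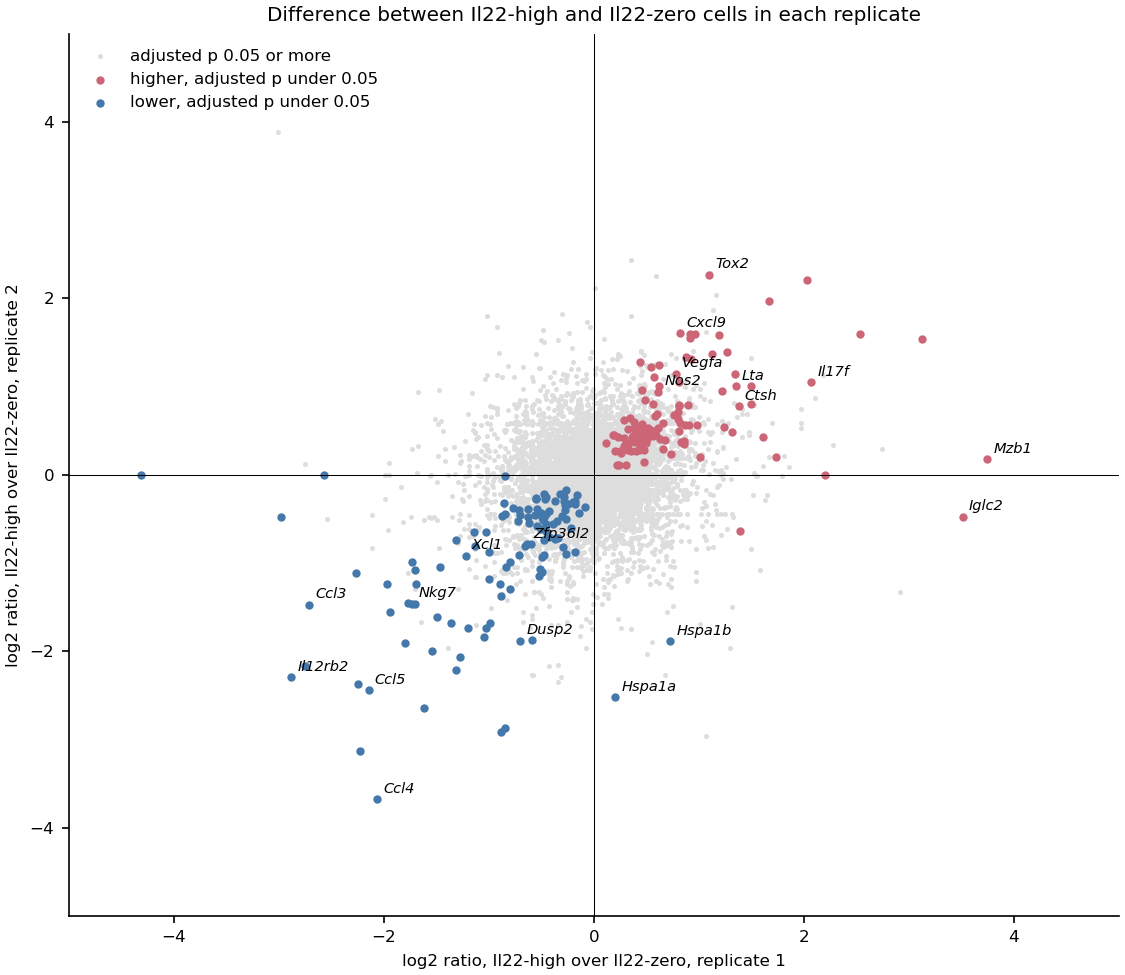
Log2 ratio of Il22-high over Il22-zero cells in replicate 1 (horizontal) and replicate 2 (vertical) for the 8119 genes tested, with genes past an adjusted p of 0.05 in red (higher) and blue (lower). Ccl4, Ccl5, Il12rb2 and Nkg7 lie low in both replicates and Il17f, Lta and Cxcl9 high in both, while Hspa1a, Hspa1b, Mzb1 and Iglc2 lie far from 0 in 1 replicate only.

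Of the 15 highest ratios among called genes with at least 50 CPM on one side in both replicates and the same sign in each replicate and in thinned cells, 4 were those of chemokine genes. Cxcl10, which encodes an interferon-induced ligand of CXCR3, was at 188 CPM in replicate 1 and 493 CPM in replicate 2 of the Il22-zero cells, and at 327 and 1023 CPM in the Il22-high cells. Within each replicate the Il22-high sum was higher, but replicate 2 exceeded replicate 1 in both groups, so that the Il22-zero sum of replicate 2 lay above the Il22-high sum of replicate 1. The ratio was 0.96 ± 0.09 (adjusted p = 1.27e-10), and it was 1.02 in thinned cells. Cxcl9, a second CXCR3 ligand, stood at 53.1 and 79.8 CPM in Il22-zero and at 93.9 and 247 CPM in Il22-high cells, a ratio of 1.35 ± 0.16 (adjusted p = 3.15e-08). Here the groups did not overlap.

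Cxcl2 and Cxcl3, ligands of the neutrophil receptor CXCR2, rose as well. Cxcl2 was at 134 and 660 CPM in Il22-zero and 247 and 1142 CPM in Il22-high cells, with a ratio of 0.84 ± 0.09 (adjusted p = 2.53e-09). Cxcl3 went from 23.6 and 134 CPM to 56.6 and 260 CPM (1.02 ± 0.14, adjusted p = 2.55e-06). In both genes the groups overlapped across replicates and separated within each. All 4 chemokine genes lie on chromosome 5. The increase of Cxcl10, Cxcl2 and Cxcl3 also passed when each thinned cell was counted once per gene, whereas Cxcl9 then had an adjusted p of 0.053 and a ratio of 1.03.

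Nos2, the inducible nitric oxide synthase, and Gjb2, a gap junction protein, both listed as markers of Ncr1 ILC3s, rose together. Nos2 was at 98.1 and 172 CPM in Il22-zero and at 149 and 332 CPM in Il22-high cells (0.83 ± 0.11, adjusted p = 7.81e-07). Gjb2 was at 617 and 934 CPM against 744 and 1250.5 CPM (0.36 ± 0.07, adjusted p = 0.000856). Both genes separated within each replicate and overlapped across them. Ncr1 did not follow them: it stood at 240 and 138 CPM in Il22-zero and at 171 and 114 CPM in Il22-high cells, a ratio of -0.38 ± 0.11 that missed the threshold (adjusted p = 0.0566). Of the 5 tested markers of this subset, 2 passed, both higher. The 6 LTi markers all had a ratio above 0 and none passed, with Cd4 at 0.87 (adjusted p = 0.0764), Ccr6 at 0.75 (adjusted p = 0.222) and Kit, the stem cell factor receptor, at 0.17 (adjusted p = 0.407). Their median was 0.65, against a median near 0 for all tested genes. Levels were also taken in cells with 0, 1 to 4, 5 to 9, 10 to 19, and 20 or more Il22 UMIs. Cd4 was at 24.3, 30.5, 9.90, 18.8 and 122 CPM in replicate 1. In replicate 2 it was at 12.1, 17.5, 2.38, 9.72 and 59.3 CPM. Ccr6 was at 25.8, 29.6, 27.2, 34.5 and 62.4 CPM in replicate 1. In replicate 2 it was at 8.47, 8.73, 9.52, 4.86 and 41.8 CPM. Both genes were thus highest in the class of 20 or more, from 39 and 17 Cd4 UMIs and 20 and 12 Ccr6 UMIs. Cd4 lay below its Il22-zero level in the other Il22-high classes, which held only 4 and 6 Cd4 UMIs in replicate 1 and 1 and 4 in replicate 2.

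Of 13 tested cytokine and growth factor genes, 3 rose and 1 fell. Il17f, which encodes the partner cytokine IL-17F of type 3 lymphocytes, was at 27.3 and 27.2 CPM in Il22-zero and 118 and 58.1 CPM in Il22-high cells. Both Il22-high sums lay above both Il22-zero sums, and the ratio of 1.66 ± 0.22 (adjusted p = 1.02e-06) corresponds to 3.17-fold. The UMIs were concentrated: 1 cell held 21.1% of the Il17f UMIs of the Il22-high sum in replicate 1, and with each thinned cell counted once the adjusted p was 0.11 at a ratio of 1.30. Il17a stood at 2.21 and 8.47 CPM against 24.0 and 10.7 CPM and did not pass (adjusted p = 0.0597).

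Vegfa, the vascular growth factor, rose from 67.8 and 48.4 CPM to 116 and 109 CPM (0.98 ± 0.16, adjusted p = 5.83e-05), with no overlap between groups. Csf2, which encodes GM-CSF, rose from 181 and 403 CPM to 243 and 593 CPM (0.52 ± 0.09, adjusted p = 7.13e-05), with overlap across replicates. Ifng fell from 36.1 and 38.7 CPM to 15.3 and 21.5 CPM (-1.004 ± 0.264, adjusted p = 0.0226). Tnf, at 103 and 105 CPM against 111 and 115 CPM, Lif (ratio 0.18) and Areg (ratio -0.09), which encode tissue-repair factors, did not pass, with adjusted p-values of 0.773, 0.813 and 0.925.

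Among 8 tested ligands of the TNF superfamily, 2 rose. Lta, the lymphotoxin alpha gene needed for lymphoid tissue formation, was at 29.5 and 26.0 CPM in Il22-zero and at 76.7 and 53.6 CPM in Il22-high cells (1.22 ± 0.21, adjusted p = 0.000115). Tnfsf11, which encodes RANKL, was at 644 and 440 CPM against 796 and 631 CPM (0.43 ± 0.07, adjusted p = 0.00018). The groups separated for Lta and overlapped across replicates for Tnfsf11.

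Many cytotoxic and type 1 genes fell in Il22-high cells. Of 22 genes listed, 19 were tested, all 19 had a ratio below 0 and 13 fell, with a list median of -1.16. Over all 8119 tested genes, 4082 had a ratio below 0 and 114 fell (1.40%). The list was chosen with earlier results of these data known, so it is not independent evidence. The members that fell were the chemokine genes Ccl3, Ccl4, Ccl5 and Xcl1, the killing genes Prf1, Nkg7 and Fasl, the lectin-like receptor genes Klrd1, Klrk1, Klrc1, Klrc2 and Klrb1c, and Il12rb2, a chain of the IL-12 receptor. Klrc1 and Klrc2 are close paralogs, so their split is uncertain.

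Xcl1, which encodes a chemoattractant for dendritic cells that carry XCR1, had the most UMIs among those 13. It was at 590 and 510 CPM in Il22-zero and at 248 and 269 CPM in Il22-high cells. The groups did not overlap, and the ratio was -1.07 ± 0.09 (adjusted p = 1.29e-12). Nkg7, a cytotoxic granule protein, fell from 265 and 197 CPM to 77.6 and 70.6 CPM (-1.62 ± 0.13, adjusted p = 5.77e-13).

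Ccl5, a chemoattractant for T cells, fell from 135 and 89.5 CPM to 28.8 and 15.2 CPM (-2.34 ± 0.20, adjusted p = 6.98e-12). Ccl4, another inflammatory chemokine gene, fell from 74.5 and 121 CPM to 16.3 and 8.04 CPM (-3.01 ± 0.29, adjusted p = 1.86e-10). Il12rb2 fell from 53.8 and 80.4 CPM to 5.75 and 15.2 CPM (-2.65 ± 0.28, adjusted p = 1.89e-09). In each of these genes both Il22-high sums lay below both Il22-zero sums. The list members that did not pass included Gzma, at 63.4 and 14.5 CPM against 25.9 and 14.3 CPM (adjusted p = 0.116), and Fcer1g, an adaptor of activating receptors, with a ratio of -0.11.

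Of 11 markers of ILC1 and NK cells 5 were tested, all with ratios below 0, and 2 fell, Klrb1c and Ccl5, both also on the cytotoxic list. Gzma and Itga1 did not pass (adjusted p = 0.116 and 0.0823). The markers Klra4 and Klra8 were at 0 on both sides. The summed level of the list was 521 and 287 CPM in Il22-zero and 233 and 164 CPM in Il22-high cells. Restricting the comparison to cells with an Ncr1 UMI and neither Ccr6 nor Cd4 left Nkg7 at -1.44 (adjusted p = 0.00043), Il12rb2 at -2.80 (adjusted p = 0.0008) and Ccl3 at -2.55 (adjusted p = 0.00055), while Xcl1 was at -0.56 (adjusted p = 0.06). T cell markers other than the rule's genes were present on both sides. Their summed level was 1114 and 1150 CPM in Il22-zero and 997 and 993 CPM in Il22-high cells. None of the 6 tested passed, but all 6 had a ratio below 0, with a median of -0.23. Of all 8119 tested genes, 4082 had a ratio below 0. Only 133 of 455 and 165 of 559 Il22-high cells held no UMI of a T cell receptor constant gene. Among Il22-zero cells it was 234 of 766 and 344 of 1013. Most members, here named ILCs, thus held such a UMI, and their identity was not tested further. In the cells without one, Nkg7 was at -1.59 and Xcl1 at -1.17, both past the threshold. Most called genes named here did not keep their call in these restrictions, which hold fewer cells. Without T cell receptor constant UMIs, 16 of the 66 that could be tested kept it, 48 lost it and 2 changed sign. In the Ncr1 restriction 18 of 72 kept it, 53 lost it and 1 changed sign.

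Among 31 tested lineage transcription factors 3 rose, Id2 and Tox2 among them, and 3 fell. Id2, an inhibitor of E proteins required for all ILCs, rose from 538 and 1127 CPM to 635 and 1338 CPM (0.25 ± 0.07, adjusted p = 0.03), and Tox2, an HMG-box factor, from 15.5 and 5.44 CPM to 34.5 and 32.2 CPM (1.74 ± 0.32, adjusted p = 0.000455); Id2 overlapped across replicates and Tox2 did not. Tbx21, which encodes T-bet, fell from 105 and 114 CPM to 70.9 and 76.0 CPM (-0.57 ± 0.15, adjusted p = 0.0226), with no overlap. The others that fell were Id3 (-1.99) and Ikzf2 (-0.29), which encodes Helios. In thinned cells Id2 (0.22), Tox2 (1.26), Tbx21 (-0.56) and Ikzf2 (-0.22) did not pass, with adjusted p-values of 0.153, 0.206, 0.238 and 0.494, and Id2 stayed past the threshold in 4 of its 15 alternatives.

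Other transcription factors of ILC3s did not pass the test. Rora, at 2329 and 3106 CPM against 2380 and 3006 CPM, had a ratio of 0.00 ± 0.05 (adjusted p = 0.989). Maf was at -0.03 (adjusted p = 0.929), Gata3 at -0.07 (adjusted p = 0.919) and Batf at 0.58 (adjusted p = 0.576). Ahr, the aryl hydrocarbon receptor, had ratios of 0.23 in replicate 1 and -0.71 in replicate 2 (adjusted p = 0.73), and none of the 5 tested genes of its list passed. Cxxc1, the gene of the study's title, was at 77.4 and 56.8 CPM against 68.1 and 62.6 CPM (-0.02 ± 0.17, adjusted p = 0.986). None of 18 tested genes of histone H3K4 methylation complexes passed.

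Of 18 tested receptors and signal transducers that induce IL-22, 1 rose and 1 fell. Il1r1, the IL-1 receptor, rose from 248 and 210 CPM to 340 and 232 CPM (0.32 ± 0.09, adjusted p = 0.0452), with overlap across replicates. Il18r1, the IL-18 receptor, fell from 514 and 575 CPM to 419 and 437 CPM (-0.34 ± 0.08, adjusted p = 0.00681). Il23r, the IL-23 receptor, was at 164 and 147 CPM against 165 and 174 CPM and did not pass (0.14 ± 0.11, adjusted p = 0.703). In thinned cells neither Il1r1 (0.21, adjusted p = 0.672) nor Il18r1 (-0.17, adjusted p = 0.583) passed, and Il1r1 stayed past the threshold in 2 of its 14 alternatives. Stat5a was at 0.59 (adjusted p = 0.0573), and Il2ra, the high-affinity IL-2 receptor chain counted with 14 JAK-STAT targets, was the 1 gene of that list that rose (0.26 ± 0.07, adjusted p = 0.0301).

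Inducible genes downstream of receptor signals changed in small numbers. Of 18 NF-κB pathway genes 3 rose: Nfkbia, an inhibitor that NF-κB induces, from 2101 and 1585 CPM to 2246 and 2035 CPM (0.24 ± 0.06, adjusted p = 0.00576), the subunit Rel at 0.31 and Cd83 at 0.62. Rel and Nfkbia were among the 14 higher genes with the motif spelled out above in an upstream window, and Cd83 was not. The share among the other members of this list was not worked out. Among 21 immediate early genes Jun (0.17) and Atf3 (0.31) rose and Dusp2, a nuclear MAP kinase phosphatase, fell from 40.6 and 86.5 CPM to 24.0 and 22.3 CPM (-1.45 ± 0.24, adjusted p = 6.04e-05). Of 14 genes of mRNA decay, Zfp36l2, which binds AU-rich elements and destabilises transcripts, was the 1 that passed. It fell from 375 and 331 CPM to 237 and 191 CPM (-0.72 ± 0.09, adjusted p = 2.09e-07), with no overlap.

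**Figure D3:**
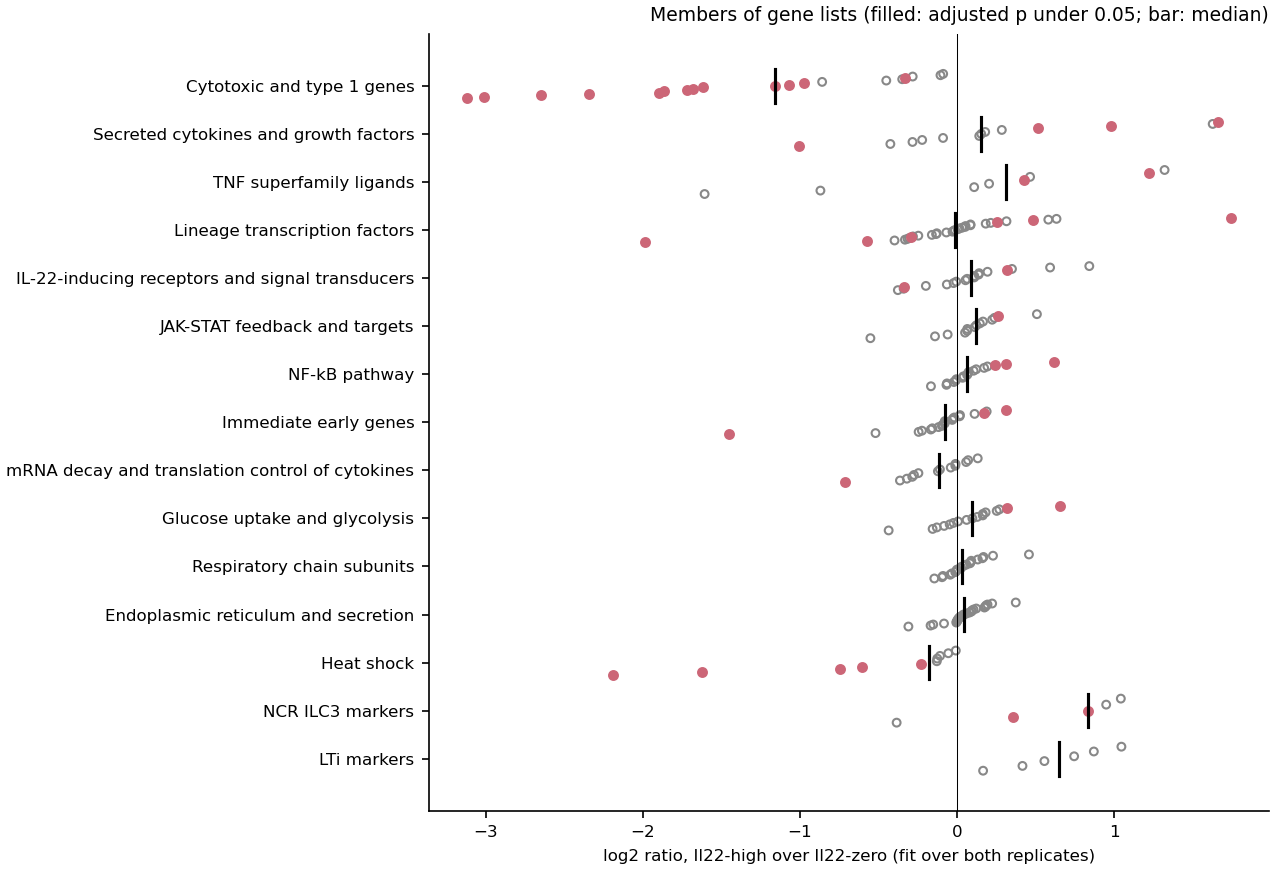
Log2 ratio of Il22-high over Il22-zero cells for the tested members of 15 gene lists (one point per gene, filled where the adjusted p was under 0.05), with the median of each list as a bar. All 19 tested cytotoxic and type 1 genes lie below 0 with a median of -1.16, while the medians of the respiratory chain and endoplasmic reticulum lists lie within 0.05 of 0.

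Metabolic and secretory genes showed few differences. Hk2, the hexokinase that starts glycolysis, rose from 1023 and 951 CPM to 1144 and 1299 CPM (0.32 ± 0.07, adjusted p = 0.00218), and Pfkfb3, which makes an activator of glycolysis, had a ratio of 0.66 (adjusted p = 0.0318). They were 2 of 17 tested genes of glucose uptake and glycolysis. Odc1, the first enzyme of polyamine synthesis, rose by a ratio of 0.18 (adjusted p = 0.00876) as 1 of 9. None of 20 listed respiratory chain genes and none of 25 listed genes of the endoplasmic reticulum and secretion passed, with list medians of 0.03 and 0.04 on the log2 scale. Ndufab1, which rose (0.83, adjusted p = 0.00804) and is given below, was not on the respiratory chain list.

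Surface receptors and adhesion genes moved in both directions. Cxcr4 rose from 25.1 and 12.7 CPM to 47.9 and 40.2 CPM (1.26 ± 0.26, adjusted p = 0.00143), and Itga4, the α4 integrin, had a ratio of 0.49 (adjusted p = 0.00413). Cd44 (-0.31) and Rgs2 (-0.25), a regulator of G protein signals, fell in the same list of 16. All 9 tested checkpoint and costimulatory genes had ratios below 0, and Icos (-0.24, adjusted p = 0.0108) and Cd52 (-0.38, adjusted p = 0.000428) fell. Over all 8119 tested genes, 4082 had a ratio below 0. Among 12 receptors for neuropeptides, lipids and metabolites, Vdr, the vitamin D receptor, rose (1.502 ± 0.353, adjusted p = 0.00776) and Adora2a, an adenosine receptor, fell (-3.01 ± 0.67, adjusted p = 0.00401), both from at most 37.5 CPM. Cd74, the invariant chain, rose as 1 of 6 genes of MHC class II presentation (0.56 ± 0.15, adjusted p = 0.0266). It stood at 241 and 124 CPM in Il22-zero, 341 and 343 CPM in middle and 396 and 146 CPM in Il22-high cells, and its ratio was -0.62 without the Il7r requirement. In replicate 2 the immunoglobulin gene Igkc was at 37.5, 1620.5 and 28.6 CPM in the same 3 groups, and its part in the result was not tested.

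Several further genes stood among the 15 highest or 15 lowest ratios chosen by that rule. Ctsh, a cathepsin, rose from 42.8 and 39.9 CPM to 112 and 69.7 CPM (1.12 ± 0.18, adjusted p = 4.84e-05). Tgm2, a transglutaminase, rose from 53.1 and 26.6 CPM to 97.8 and 69.7 CPM (1.11 ± 0.18, adjusted p = 7.76e-05). Sp2, Ndufab1, Pcp4, Bik and Gadd45g rose with ratios of 0.85, 0.83, 0.76, 0.75 and 0.74. Smim3, Txnip, Slamf7, Hic1, Plac8, Wipf1, Gm19585 and Padi2 fell with ratios of -1.26, -1.07, -1.03, -0.98, -0.87, -0.78, -0.77 and -0.74. In thinned cells Sp2 (0.76, adjusted p = 0.235), Ndufab1 (0.51, adjusted p = 0.523), Plac8 (-0.78, adjusted p = 0.12) and Padi2 (-0.38, adjusted p = 0.639) did not pass.

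Cells with 1 to 4 Il22 UMIs were compared with both groups. Against Il22-zero cells, 68 of 8119 genes differed in them (0.838%), and against them 83 genes differed in Il22-high cells (1.02%); these comparisons share sums with the main one. In 5 classes of rising Il22 UMIs (0, 1 to 4, 5 to 9, 10 to 19, and 20 or more), Nkg7 was at 265, 169, 91.6, 65.9 and 71.7 CPM in replicate 1 and at 197, 127, 88.0, 65.6 and 52.3 CPM in replicate 2. Most of its fall was thus reached by 5 to 9 UMIs. Il17f behaved otherwise, with 27.3, 37.4, 34.6, 179 and 162 CPM in replicate 1 and 27.2, 47.1, 35.7, 36.4 and 122 CPM in replicate 2. It was high only at 10 or more Il22 UMIs in replicate 1 and at 20 or more in replicate 2. Those classes held 57 and 52 Il17f UMIs in replicate 1 and 35 in replicate 2. In replicate 1, 1 cell held 21.1% of the Il17f UMIs of the Il22-high sum, and its class was not determined. Each of the 10 classes held between 112 and 1013 cells.

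**Figure D4:**
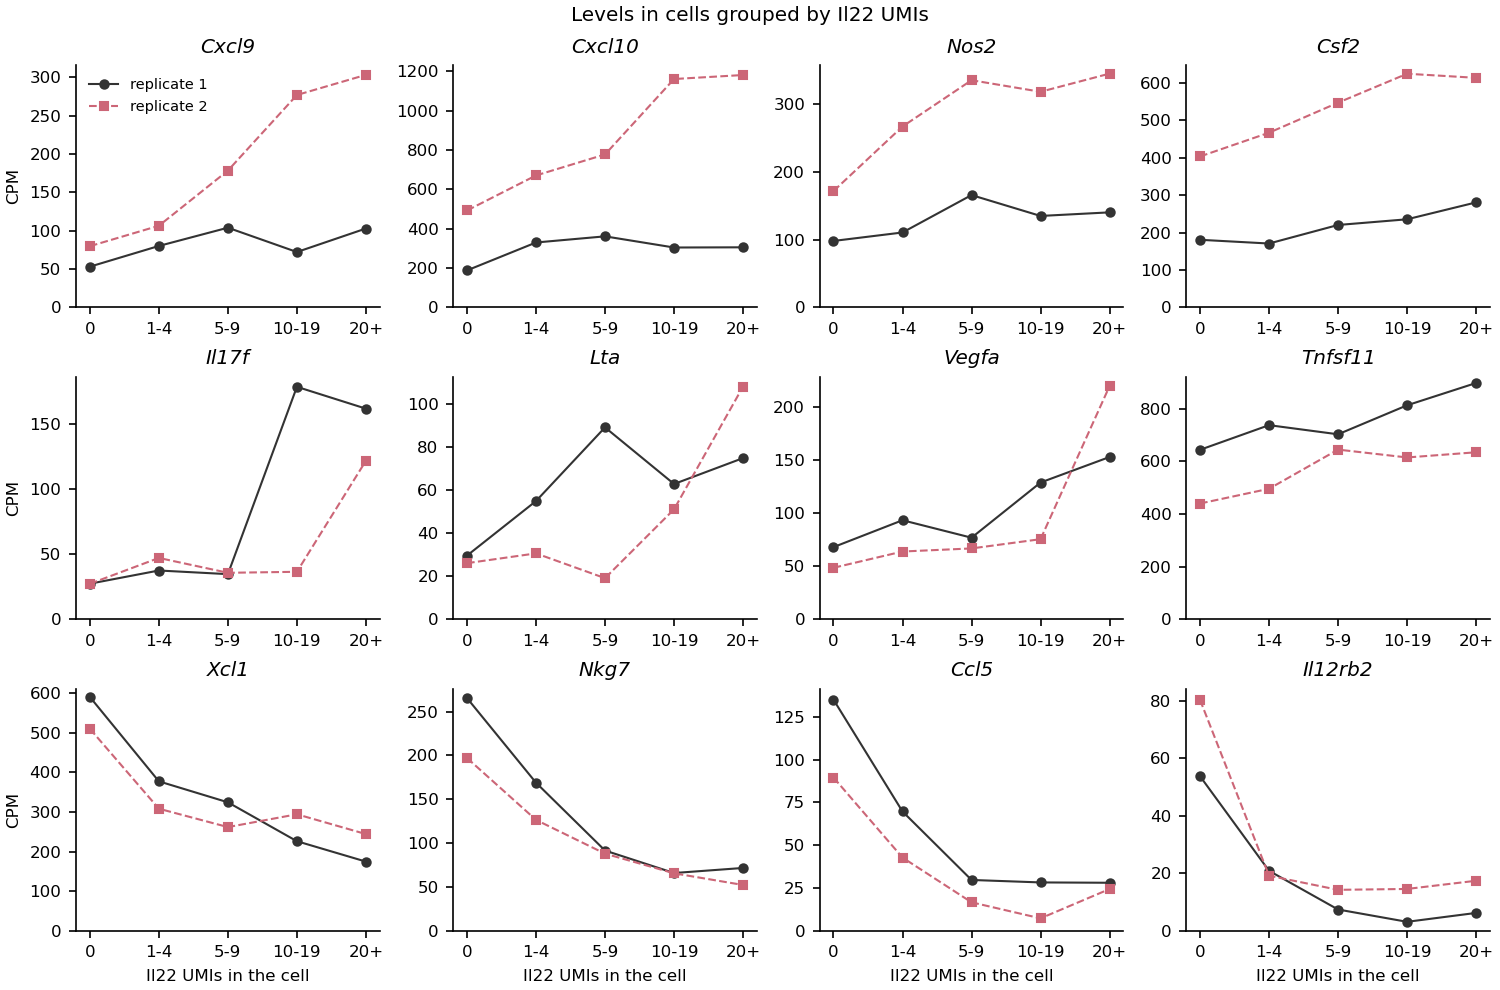
CPM of 12 genes (vertical, from 0) in cells grouped by their Il22 UMIs (horizontal), with one line per replicate. Xcl1, Nkg7, Ccl5 and Il12rb2 drop steeply between 0 and 5 to 9 UMIs in both replicates, while Il17f is high only at 10 or more UMIs in replicate 1 and at 20 or more in replicate 2.

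Some calls rested on 1 replicate. Hspa1a, an inducible heat shock protein, was at 24.3 and 664 CPM in Il22-zero and at 27.8 and 114 CPM in Il22-high cells. Its near-identical neighbour Hspa1b was at 17.0 and 837 CPM against 28.8 and 225 CPM. Both were thus high in replicate 2 alone, and their log2 ratios were 0.20 and 0.73 in replicate 1 and -2.52 and -1.89 in replicate 2. With Hspa8, Hsph1 and Dnajb1 they were the 5 of 10 tested heat shock genes that fell, and 3 of the 10 had the same sign in both replicates. The other called genes without a shared sign were Eln, Lama2 and the immunoglobulin genes Iglc2, Iglv1 and Igkv5-48.

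Transcripts of other cell types were present as well. Summed B and plasma cell markers were at 3242 and 72.6 CPM in Il22-zero and 4893 and 54.5 CPM in Il22-high cells, and 1 cell held 92.3% of the UMIs of Mzb1, the 1 marker of 6 that passed, in the Il22-high sum of replicate 1. Summed stromal markers were at 2312 and 158 CPM against 1861 and 163 CPM, with Col1a1 and Adamdec1 lower as 2 of 9. The B cell marker Ms4a1 was at 0 on both sides. Myeloid and epithelial markers summed to at most 28.8 and 18.7 CPM, and the tested genes, Lyz2 and Defa24, did not pass. The 2 tested ILC2 markers, Gata3 and Calca, did not pass either. Of 9 tested proliferation genes Mki67, Top2a and Stmn1 rose, and Mki67 went from 5.90 and 7.86 CPM to 28.8 and 42.0 CPM, with 38.3% of its UMIs in the Il22-high sum of replicate 2 in 1 cell. In depth-matched cells the ratios of Mki67 and Stmn1 were -0.74 and -0.29, and in thinned cells Stmn1 had an adjusted p of 0.576. The part of these cells in the genes above was not tested.

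Whether the differences depended on the ILC3 subset could be asked only with Il22-high set at 3 or more UMIs, since at 5 or more 1 of the 8 Il22-zero and Il22-high sums held 16 cells, under the minimum of 20. The middle sums were not used. Cells with Ncr1 and neither Ccr6 nor Cd4 were set against cells with Ccr6 or Cd4 and no Ncr1. Of 4057 genes tested, 4 differed in their ratio between the subsets (0.0986%): Xcl1, Cd7, Plek and Igkc. Xcl1 went from 651 and 628 CPM to 406 and 391 CPM in Ncr1 cells, and from 260 and 567 CPM to 25.4 and 45.0 CPM in Ccr6 or Cd4 cells. The latter are 16 and 18 UMIs against 3 and 2, and the difference of the log2 ratios was -2.89 ± 0.62 (adjusted p = 0.0211). Without the replicate block no gene passed (0 genes; 151 at an unadjusted p under 0.05), and DESeq2 called 1.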

How the data were processed

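The deposited tables hold whole-number counts of UMIs per gene and cell, with a sample tag call for each cell, as the authors deposited them. Per the file headers and names these are BD Rhapsody molecule counts after the vendor's error correction. The submitters' processing notes name HISAT2 2.0.5, Bowtie2 and the mm10 and GRCm38.p6 builds. The libraries held 15793 and 16531 cells, of which 3427 and 3954 carried their own tag (7011649 and 6845914 UMIs); other tags were left out, as were 572 and 987 cells called as multiplets. Doublets within a tag were not removed. The libraries shared 303 cell indexes, 10 among the cells with their own tag.

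Cells were filtered and grouped by the stated rule, and UMIs were summed per replicate and Il22 group into 6 sums. The sums were fitted in edgeR 4.0.16 (R 4.3.3) with TMM, filterByExpr and the replicate as a block, because the sums of a replicate come from the same library; Il22, Il7r, the CD3 genes, Trac and mitochondrial genes stayed in library sizes and out of tests. Ratios in a single replicate are differences of log2 CPM with a prior count of 2. Alternatives included DESeq2 1.42.0, thinning to 1000 UMIs and other cell rules. Genes are named by a rule: the 15 highest and 15 lowest ratios with a level of at least 50 CPM and the same sign in both replicates and in thinned cells, up to 4 members of each of 30 gene lists, a set of ILC3 genes, and the few members behind small counts. The members and lists were chosen with earlier results of these data known, and the cell-type and pathway lists are therefore not independent evidence. One gene of the lists, and the cell restrictions that use it, are not reported here.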

Additional observations from a re-analysis of the deposited data

Results flagged for a closer look

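The log2 ratio of Il22-high (3 or more UMIs) over Il22-zero cells differed between Ncr1 cells and Ccr6 or Cd4 cells, by edgeR's interaction test, for 4 of 4057 genes. Of the 8 Il22-zero and Il22-high sums in this fit the smallest held 20 cells. Xcl1 fell further in Ccr6 or Cd4 cells, with a difference of -2.89, and Cd7, a surface receptor of lymphocytes, had ratios of 0.68 in Ncr1 cells and -1.10 in Ccr6 or Cd4 cells, a difference of -1.78. Plek, which encodes pleckstrin, had ratios of -2.12 and 1.33, a difference of 3.45, from 8 and 5 UMIs in the Il22-high sums of Ncr1 cells and 41 and 30 in those of Ccr6 or Cd4 cells. Igkc, an immunoglobulin gene, had a difference of 4.51, and its UMIs were 949 and 9 in the Il22-zero sums and 186 and 16 in the Il22-high sums of Ncr1 cells, against 16 and 0, and 183 and 2, in Ccr6 or Cd4 cells.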

How the results depend on the processing

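The numbers of genes higher and lower (110 and 114 as reported) came to 0 and 0 with no replicate block, 15 and 8 with DESeq2, 57 and 44 with cells thinned to 1000 UMIs, 56 and 47 with depth-matched cells, and 64 and 60 with Il22 at 3 or more. They were 107 and 251 without the Il7r requirement, of which 88 and 78 were among the genes reported. Without cells with T cell receptor constant UMIs they were 28 and 19, of which 14 and 13 were. In 2 alternatives chosen after seeing the data the numbers were 21 and 57 in Ncr1 cells alone and 19 and 10 with each thinned cell counted once per gene. Of these, 17 and 23, and 18 and 10, were among the genes reported. Restricted sets hold fewer cells and fewer tested genes (4821 in the restriction by T cell receptor and 4958 in that by Ncr1). Library totals, no filter on low counts, 4 sums, Il22 at 10 or more, and looser or stricter cell filters stayed within 1.5 times of both counts. The 4 genes that depended on the subset became 0 with no replicate block, 2 without the filter on low counts and 1 with DESeq2; its thinned form was not run, because too few cells were left. Leaving out a replicate leaves 1 sum per group and no residual degrees of freedom, so each replicate's ratio stands as a value with no test.

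The sign turned in some settings, and the cause was not tested. In depth-matched cells it was -0.74 for Mki67, -0.29 for Stmn1, 0.019 for Col1a1, -0.42 for Iglc2 and -0.92 for Eln. Without the Il7r requirement it was -0.62 for Cd74, -0.58 for Mzb1 and -0.35 for Eln. Without T cell receptor constant UMIs it was -0.024 for Hk2 and 1.66 for Col1a1, which was also at 0.57 with Il22 at 3 or more and 0.38 with the looser filter. Id3 was at 0.35 with Il22 at 3 or more, Eln at -2.04 in Ncr1 cells, and Adamdec1 at 0.086 with each cell counted once. With 1 replicate left out the ratio ranged from -2.52 to 0.20 for Hspa1a, -1.89 to 0.73 for Hspa1b, -0.63 to 1.39 for Eln and -0.47 to 3.51 for Iglc2.

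Of the alternatives that gave a value, Nkg7 stayed past the threshold in 13 of 14 and Cxcl10 in 14 of 15, with ratios from -1.82 to -1.28 and from 0.68 to 1.27. Of 84 called genes named here, 47 of the 74 testable in thinned cells still passed.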
